A study of Mus musculus with 6 samples.

Results

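The enzymes, granule proteins and transcription factors of the pancreatic acinar cell were followed in 6 RNA-seq libraries of mouse pancreatic islets, labelled as beta cells. The 33 genes were chosen by name, as known products or regulators of acinar cells, and all 33 were found among the 54532 genes of the deposited table. The libraries were 3 Bcas2 Cko libraries (genotype Cko, which the design text calls a knockdown in beta cells) and 3 control libraries (genotype wt). Bcas2 encodes a subunit of the Prp19 complex of the spliceosome. The promoter of the Cre, the deleted part of the gene, and the age and sex of the mice are not stated in the labels used. The table's Cko columns carry the numbers 3, 4 and 5 and its control columns 1, 3 and 4. The sample titles name Cko 1, 3 and 4, so Cko library 5 was placed by its group name alone. Nothing in the labels ties a library to its own animal, so every p-value here weighs a difference against library-to-library spread that may be only technical.

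Acinar cells make up most of the exocrine pancreas and surround the islets. They store inactive digestive enzymes, the zymogens, in granules and release them into the ducts, where they flow to the gut. The PTF1 complex, in which the factor PTF1A joins RBPJL in the adult cell, binds the promoters of many enzyme genes. BHLHA15, also called MIST1, shapes the secretory apparatus. Islet endocrine cells make hormones and are not known as a source of these enzymes, and some acinar tissue commonly stays with islets after isolation.

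Values are FPKM as deposited, read counts scaled to gene length and to a library size that is not the plain total of reads on genes. Levels of different genes are compared on this per-length scale. Between 16351800 and 16904326 reads on genes stood behind a Cko library and between 15170439 and 15594871 behind a control library. Bcas2 had 8.76, 8.40 and 9.14 FPKM in Cko libraries 3, 4 and 5, against 10.3, 15.04 and 11.2 FPKM in control libraries 1, 3 and 4. Every Cko value lay below every control value, but the log2 fold change of -0.42 (SE 0.13) did not pass the test (limma adjusted p 0.0829; exact permutation p = 0.1, as low as this design can go). Without control library 1 it was -0.52 and passed (limma adjusted p 0.0492), and without control library 3 it was -0.27. With each library rescaled without the acinar genes it was -0.14 (limma adjusted p 0.371). On that scale the typical gene stood higher in Cko too, with an all-gene median of 0.22, against -0.03 on the deposited scale. The smaller Bcas2 difference is thus not particular to Bcas2. The rescaling sets the summed FPKM of all remaining genes equal, the hormone genes included. Of these, Ins2 alone averaged 72591 FPKM in Cko and 135234 FPKM in control. The rescaling therefore changes more than the acinar part, and a link of the Bcas2 difference to acinar RNA was not tested. The beta cell label was checked on 12 beta cell markers. Their summed level was 109036 to 128868 FPKM in Cko and 166231 to 265668 FPKM in control. Of the 12, 4 fell and none rose, where 7.55% of all genes tested fell and 6.97% rose. Gcg, the glucagon gene of alpha cells, was also present at 20624 to 26311 FPKM in Cko and 17728 to 20437 FPKM in control, so the libraries held more than beta cells.

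The 33 acinar genes were higher in Cko as a group, but their level differed widely among libraries of the same genotype. Their summed level was 16444, 23279 and 49917 FPKM in Cko libraries 3, 4 and 5, against 13264, 6723 and 5696 FPKM in control libraries 1, 3 and 4. They took 2.14, 2.83 and 6.01% of the reads on genes in those Cko libraries, against 1.61, 0.728 and 0.660% in those control libraries. Cko library 5 therefore stood apart above the other Cko libraries, by 3.04-fold over Cko library 3, and control library 1 stood apart above the other controls, by 2.33-fold over control library 4. The step from the highest control to the lowest Cko library was smaller, 1.24-fold. The ratio of the mean summed levels, Cko over control, was 3.49. It was 2.32 without Cko library 5 and 4.81 without control library 1. In bulk RNA, more acinar cells in a preparation and more acinar RNA per cell cannot be told apart.

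**Figure D1:**
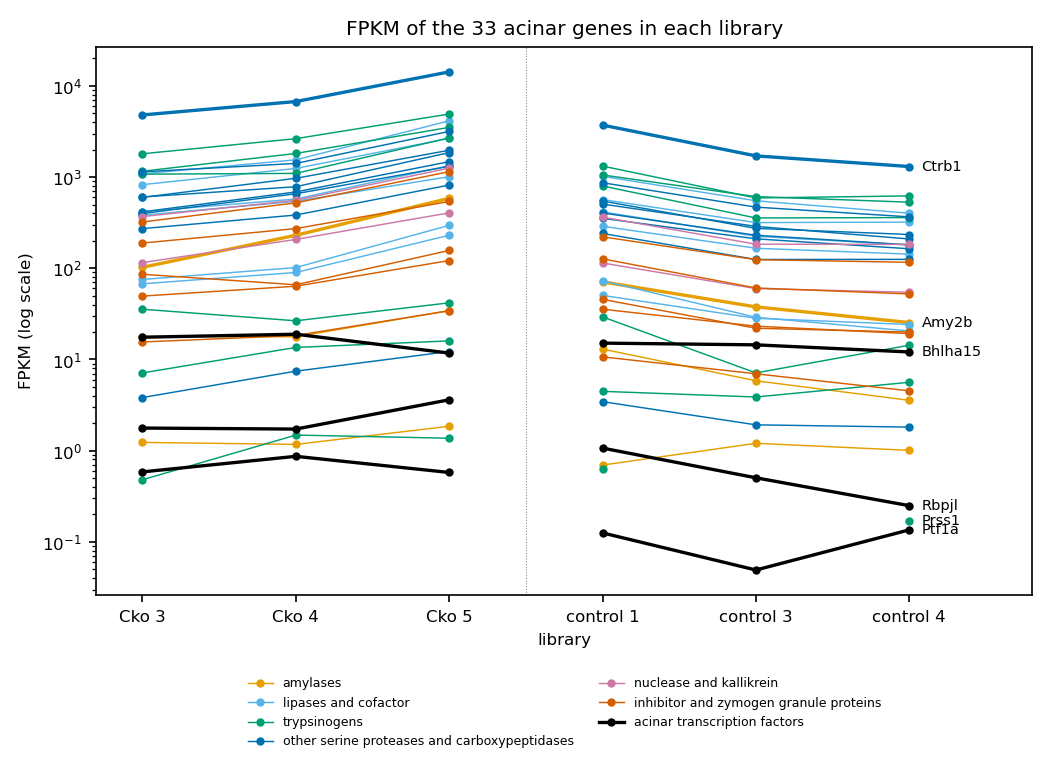
FPKM (log scale) of each of the 33 genes in the 3 Cko libraries and the 3 control libraries, 1 line per gene, coloured by role, with Prss1 not drawn in control library 3, where it is listed at 0. Most lines run nearly parallel, highest in Cko library 5 and lowest in control library 4, whereas Bhlha15 stays between 11.7 and 18.9 FPKM.

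The order of the libraries was nearly the same from gene to gene. Cko library 5 held the highest value for 30 of the 33 genes, where it did so for 12.9% of the 13723 genes tested across the table. Control library 1 was the highest control for 30 of the 33, against 31.6% of all genes tested. The full order from Cko library 5 through 4 and 3 to control library 1, with the other controls below, was seen in 24 of the 33 genes and in 1.12% of all genes tested. For 29 of the 33 genes every Cko value lay above every control value, against 16.8% of all genes tested. The median ratio of the group means, Cko over control, was 3.25 over the 33 genes. The genes share their libraries, so these counts describe the libraries and are not separate observations.

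Of the 31 genes that reached a mean of 1 FPKM and were tested, 11 rose in Cko, none fell and 20 did not pass (limma with trend on log2(FPKM + 1), Benjamini-Hochberg adjusted p under 0.05 over all genes tested). Across all genes tested 6.97% rose and 7.55% fell. The median log2 fold change was 1.61 over the 31 genes and -0.03 over all genes tested. At an unadjusted p under 0.05 stood 29 of the 31 genes, against 31.5% of all genes. In 4 of the 6 fits that left out 1 library, at most 1 acinar gene was called, in a test with fewer samples. No acinar gene was called without Cko library 5, without control library 3 or without control library 4 (limma), where 29, 23 and 23 genes stood at an unadjusted p under 0.05, and voom on reads recovered from all 6 libraries called 29. The median log2 fold change of the acinar genes was 1.15, 1.54 and 1.35 in these 3 fits, and the genes of the whole table that rose numbered 491, 686 and 466, against 957 with all libraries. Without Cko library 4 Gp2 alone was called, and without control library 1 there were 22 calls.

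**Figure D2:**
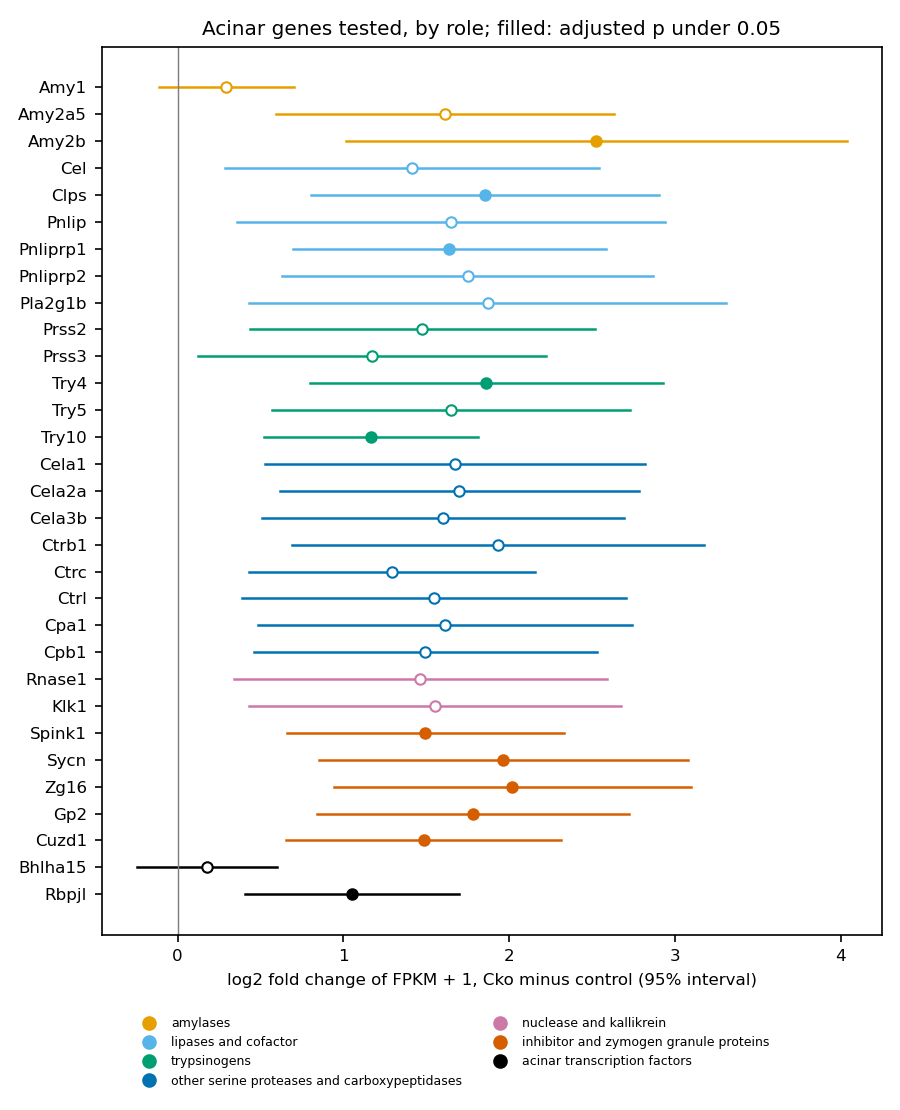
Log2 fold change of FPKM + 1, Cko minus control, with its 95% interval from limma, for the 31 acinar genes tested, ordered and coloured by role. Filled points passed an adjusted p of 0.05. Apart from Amy1, Bhlha15 and the higher Amy2b, the estimates lie between 1.05 and 2.02 and their intervals overlap.

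The zymogen granule proteins and the trypsin inhibitor were the one class in which every gene passed, 5 of 5. The share that rose over all genes tested was 6.97%. Their log2 fold changes of 1.48 to 2.02 overlapped those of the elastase, chymotrypsin and carboxypeptidase genes, 1.29 to 1.93, of which 0 of 8 passed. Each of the 5 passed in at most 2 of the 6 fits that left out 1 library. Zg16, a lectin of the granule membrane, was 189, 272 and 539 FPKM in Cko libraries 3, 4 and 5, against 127, 60.8 and 52.3 FPKM in control libraries 1, 3 and 4. It rose by a log2 fold change of 2.02 (SE 0.45, limma adjusted p 0.0305). Sycn, or syncollin, a granule protein that helps in exocytosis, was 322, 521 and 1145 FPKM in the Cko libraries, against 221, 124 and 116 FPKM in control, and rose by 1.96 (SE 0.47, limma adjusted p 0.0366). Both genes stepped through the libraries in the order of the summed level, with no overlap between the groups.

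Gp2, the main glycoprotein of the granule membrane, broke that order within Cko. It was 85.9, 65.9 and 157 FPKM in Cko libraries 3, 4 and 5, against 45.6, 22.0 and 20.0 FPKM in control libraries 1, 3 and 4, and it rose by 1.78 on the log2 scale (SE 0.40, limma adjusted p 0.0296). Cuzd1, a granule membrane protein with CUB and zona pellucida domains, was 15.5, 18.3 and 34.2 FPKM in Cko, against 10.7, 6.96 and 4.53 FPKM in control, and rose by 1.48. Spink1 (chromosome 18), the inhibitor that protects the cell from trypsin activated too early, was 49.5, 63.6 and 121 FPKM in Cko, against 35.6, 23.2 and 19.2 FPKM in control, and rose by 1.49. None of these 3 genes overlapped between the groups, and 16.8% of all genes tested lay higher in every Cko library.

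The lipases and their cofactor were higher in Cko, 2 of 6 past the test, where 6.97% of all genes tested rose. Pnlip, the pancreatic triglyceride lipase, was the most abundant, at 1085, 1545 and 4134 FPKM in Cko libraries 3, 4 and 5, against 1018, 549 and 401 FPKM in control libraries 1, 3 and 4. Its lowest Cko value was 1.07 times its highest control value, and the log2 fold change of 1.65 (SE 0.54) did not pass (limma adjusted p 0.0893). Clps (ENSMUSG00000024225), colipase, which anchors the lipase to fat droplets, was 825, 1243 and 2652 FPKM in Cko, against 566, 317 and 321 FPKM in control, and rose by 1.85 (SE 0.44, limma adjusted p 0.0366). Pnliprp1, a lipase relative, was 382, 542 and 1009 FPKM in Cko, against 288, 166 and 143 FPKM in control, and rose by 1.64. The carboxyl ester lipase gene Cel (log2 fold change 1.42), Pnliprp2 (1.75) and the phospholipase gene Pla2g1b (1.87) did not pass, with adjusted p from 0.0515 to 0.0938.

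Among the proteases, the chymotrypsinogen gene Ctrb1 (ENSMUSG00000031957) was the most abundant of the 33 genes in every library. It held 4797, 6728 and 14216 FPKM in Cko libraries 3, 4 and 5, against 3711, 1706 and 1304 FPKM in control libraries 1, 3 and 4, with a log2 fold change of 1.93 that did not pass (SE 0.53, limma adjusted p 0.0527). Cela2a, an elastase, was 1140, 1410 and 3165 FPKM in Cko, against 866, 468 and 366 FPKM in control (1.70, limma adjusted p 0.0512). All 8 elastase, chymotrypsin and carboxypeptidase genes had no overlap between the groups, yet 0 of 8 were called. Over all genes tested, 16.8% lay higher in every Cko library and 6.97% rose. The other 6, Cela1, Cela3b, Ctrc, Ctrl, Cpa1 and Cpb1, had log2 fold changes of 1.29 to 1.67 and adjusted p of 0.0577 to 0.0800. All 8 had an unadjusted limma p under 0.05, against 31.5% of all genes tested.

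Of the 6 trypsinogen genes, whose products become trypsin in the gut, 2 rose, 3 did not pass and Prss1 was too low to test. Among all genes tested 6.97% rose. Try4 (ENSMUSG00000054106) was 1799, 2635 and 4907 FPKM in Cko libraries 3, 4 and 5, against 1319, 590 and 621 FPKM in control libraries 1, 3 and 4, and rose by 1.86 on the log2 scale (SE 0.45, limma adjusted p 0.0374). Prss2 was 1158, 1814 and 3503 FPKM in Cko, against 1054, 610 and 530 FPKM in control (1.48, limma adjusted p 0.0672). Try10 was 7.11, 13.5 and 15.98 FPKM in Cko, against 4.47, 3.88 and 5.62 FPKM in control, and rose by 1.17. Try5 averaged 1620 ± 925 FPKM in Cko and 504 ± 254 FPKM in control (SD, n = 3 each), and Prss3 34.6 ± 7.65 and 16.9 ± 11.3 FPKM in the same order, with overlap between the groups. Prss1 had 7, 21 and 19 reads in Cko, against 8, 0 and 2 reads in control.

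The division of reads among trypsinogen genes is uncertain. Of the 50-base words of Try4 transcripts in GENCODE M21, 65.6% also occur in another gene, most of them in Try5, and the share was 66.1% for Prss3, 54.9% for Prss1, 47.6% for Try5, 40.8% for Try10 and 7.83% for Prss2. Counted together, the 6 genes held 61499, 81181 and 159693 reads in Cko libraries 3, 4 and 5, against 42248, 17548 and 18664 reads in control libraries 1, 3 and 4. Relative to the reads of the members outside the amylase and trypsinogen families, this was 20.5 ± 1.34% in Cko and 20.9 ± 2.02% in control (SD, n = 3 each). The family total thus kept its proportion to the other acinar genes to within the spread of each group.

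Rnase1, the pancreatic ribonuclease, and Klk1, tissue kallikrein, followed the same course without passing. Rnase1 was 369, 556 and 1254 FPKM in Cko libraries 3, 4 and 5, against 364, 184 and 182 FPKM in control libraries 1, 3 and 4 (1.46, limma adjusted p 0.0857). Klk1 was 115, 207 and 405 FPKM in Cko, against 114, 59.8 and 54.5 FPKM in control (1.55, limma adjusted p 0.0724). For both, Cko library 3 lay just above control library 1, by 1.01-fold.

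Amylase, the starch-cutting enzyme, is encoded on chromosome 3 by a row of near-identical copies, and here the single genes and the family gave different pictures. Amy2b (ENSMUSG00000083079, GRCm38 chr3:113147656-113156727, - strand), which the table classes as unprocessed pseudogene, had the highest ratio of means of the 33 genes, 6.84. It was 102, 230 and 584 FPKM in Cko libraries 3, 4 and 5, against 70.8, 37.7 and 25.4 FPKM in control libraries 1, 3 and 4, and rose by 2.52 on the log2 scale (SE 0.64, limma adjusted p 0.0431). Without Cko library 5 its log2 fold change was 1.88 and did not pass (limma adjusted p 0.0807). Amy2a5 was 17.8, 17.7 and 34.3 FPKM in Cko, against 12.997, 5.84 and 3.56 FPKM in control (1.61, limma adjusted p 0.0501). Amy1, the salivary form, was low, at 1.42 ± 0.376 FPKM in Cko and 0.969 ± 0.257 FPKM in control (SD, n = 3 each), with overlap between the groups. Of its 50-base words, 31.8% lie also in transcripts of Rnpc3.

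Within the amylase reads, Amy2b took 26.1, 42.0 and 56.7% in Cko libraries 3, 4 and 5, against 29.2, 25.8 and 24.4% in control libraries 1, 3 and 4. Amy2a3 took 40.2, 34.1 and 14.3% in Cko, against 34.6, 29.0 and 42.6% in control. Amy2b was thus high in Cko libraries 4 and 5 only, and in library 5 the share of Amy2a3 was low. Of the 50-base words of Amy2b, 40.2% occur in another gene, and for Amy2a2, Amy2a3 and Amy2a4 the share was 100%. The 7 amylase genes together held 3.73 ± 0.342% of the reads of the other acinar members in Cko and 3.10 ± 0.252% in control (SD, n = 3 each), a ratio of 1.204 with overlap between the groups.

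**Figure D3:**
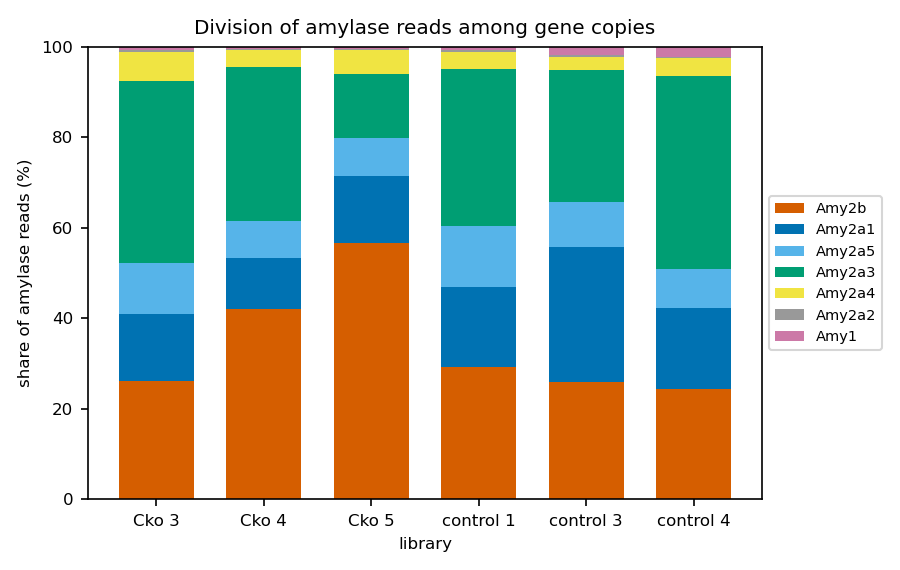
Share of amylase reads (%) assigned to each of the 7 amylase genes in the 3 Cko and 3 control libraries, as stacked bars. Amy2b takes 42.0 and 56.7% in Cko libraries 4 and 5 and between 24.4 and 29.2% in the other 4 libraries.

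The transcription factors did not follow one course. Bhlha15 (ENSMUSG00000052271) was 17.5, 18.9 and 11.7 FPKM in Cko libraries 3, 4 and 5, against 15.1, 14.5 and 12.1 FPKM in control libraries 1, 3 and 4. Its highest and lowest libraries differed by 1.61-fold, while the summed acinar level differed by 8.76-fold, and Cko library 5, with the most acinar RNA, was its lowest. The log2 fold change was 0.18 (95% interval -0.24 to 0.60, limma adjusted p 0.539), so the interval did not reach the estimate of any enzyme gene other than Amy1.

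Rbpjl (ENSMUSG00000017007) did move with the enzymes, at 1.77, 1.72 and 3.61 FPKM in Cko libraries 3, 4 and 5, against 1.07, 0.504 and 0.249 FPKM in control libraries 1, 3 and 4. These values came from 184, 174 and 357 reads in Cko, against 97, 39 and 21 reads in control. It rose by 1.05 on the log2(FPKM + 1) scale (SE 0.27, limma adjusted p 0.0459), a scale that understates the 3.90-fold ratio of means at this low level. Ptf1a (ENSMUSG00000026735) was near the limit of detection, with 16, 23 and 15 reads in Cko libraries 3, 4 and 5, against 3, 1 and 3 reads in control libraries 1, 3 and 4. The level of Ptf1a was 0.585, 0.867 and 0.577 FPKM in Cko, against 0.125, 0.0491 and 0.135 FPKM in control. Its groups did not overlap, and unlike the enzymes it was not higher in Cko library 5 than in Cko libraries 3 and 4, at counts too low to rank these libraries. With a mean under 1 FPKM it was not tested. In the fit with no filter, over 32845 genes, it passed (log2 fold change 0.60, SE 0.096, limma adjusted p 0.0353), alone among the 33 genes. That call rests on the few reads given above and does not set Ptf1a apart from the enzymes.

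PTF1 recognizes an E-box, of which CACCTG is a common form, together with a box of the RBPJ type, here searched as TTTCCC. Both were looked for on both strands of RefSeq promoters of GRCm38.p6, from 250 bases before to 50 bases after the start, which were found for 27 of the 33 genes. CACCTG was in the promoters of 15 of the 27 genes (55.6%) and in 20.2% of all 32851 promoters. TTTCCC was in 9 of 27 (33.3%) and in 25.2% of all promoters, and both were in 6 of 27 (22.2%) and in 4.86% of all. Paralogous promoters share sequence and are not independent, and a match of letters is a description, not a binding site.

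The promoters below show the arrangement in 3 enzyme genes that moved with the summed level (Cela1, Cel and Prss2) and in the factors Rbpjl and Bhlha15, which parted. The 3 enzyme genes were taken from the 6 genes that hold both boxes. Pnlip and Sycn, which also moved with the summed level, hold neither. Capitals mark CACCTG and TTTCCC, or their reverse complements CAGGTG and GGGAAA, and each sequence runs 5′ to 3′ in the direction of the gene. In Cela1 the E-box begins at -109 and the RBPJ-type box at -99, whereas Cel holds 4 E-boxes and Bhlha15 holds 2 E-boxes and no TTTCCC.
Cela1 promoter (chr15:100687871-100688170, - strand): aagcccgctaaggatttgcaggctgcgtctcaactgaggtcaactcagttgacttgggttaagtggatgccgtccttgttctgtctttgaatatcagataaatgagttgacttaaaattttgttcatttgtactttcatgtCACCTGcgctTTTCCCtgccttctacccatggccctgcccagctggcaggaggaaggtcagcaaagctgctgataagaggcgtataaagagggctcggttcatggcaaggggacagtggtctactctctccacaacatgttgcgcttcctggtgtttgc
Cel promoter (chr2:28563354-28563653, - strand): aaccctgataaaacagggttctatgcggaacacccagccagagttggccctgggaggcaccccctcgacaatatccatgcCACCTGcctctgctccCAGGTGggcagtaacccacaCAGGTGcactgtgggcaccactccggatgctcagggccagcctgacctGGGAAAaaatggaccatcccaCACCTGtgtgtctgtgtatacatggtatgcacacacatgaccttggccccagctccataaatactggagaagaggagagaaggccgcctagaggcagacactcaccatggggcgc
Prss2 promoter (chr6:41521526-41521825, + strand): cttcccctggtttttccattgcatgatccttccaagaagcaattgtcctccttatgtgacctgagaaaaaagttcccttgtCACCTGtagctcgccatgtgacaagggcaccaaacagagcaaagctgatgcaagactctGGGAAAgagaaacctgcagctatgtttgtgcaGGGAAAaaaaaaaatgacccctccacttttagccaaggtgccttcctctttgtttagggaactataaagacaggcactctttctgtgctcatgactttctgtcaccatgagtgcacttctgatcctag
Rbpjl promoter (chr2:164402944-164403243, + strand): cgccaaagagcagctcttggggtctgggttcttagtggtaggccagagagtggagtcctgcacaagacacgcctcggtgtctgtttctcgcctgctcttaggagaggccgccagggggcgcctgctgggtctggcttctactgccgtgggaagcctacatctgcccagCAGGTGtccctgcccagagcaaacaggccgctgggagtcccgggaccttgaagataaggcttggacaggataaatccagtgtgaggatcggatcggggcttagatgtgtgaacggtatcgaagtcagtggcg
Bhlha15 promoter (chr5:144190036-144190335, + strand): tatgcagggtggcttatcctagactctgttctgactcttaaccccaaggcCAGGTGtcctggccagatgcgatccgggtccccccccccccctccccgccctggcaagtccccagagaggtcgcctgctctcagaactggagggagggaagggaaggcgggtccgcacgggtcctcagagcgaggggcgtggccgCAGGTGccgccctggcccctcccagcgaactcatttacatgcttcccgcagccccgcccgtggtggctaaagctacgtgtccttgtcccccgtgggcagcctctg
The E-box was thus present in Bhlha15, which did not follow the enzymes, as well as in genes that did.

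The make-up of the acinar transcripts was compared by dividing each gene by the summed FPKM of the 33 in the same library. For the 27 genes with at least 1000 reads over all libraries, the median gene spanned 8.16-fold between its highest and lowest library in FPKM and 1.35-fold in its share of the sum. The share ratio, Cko over control, had a median of 0.940 over these genes and was within 1.5-fold for 25 of 27, the exceptions being Amy2b and Bhlha15. Among the 17 enzyme, inhibitor and granule genes whose transcripts share under 1% of their 50-base words with other genes, it ran from 0.798 for Cel to 1.22 for Zg16. Shares add up to a fixed total and are not independent of each other.

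**Figure D4:**
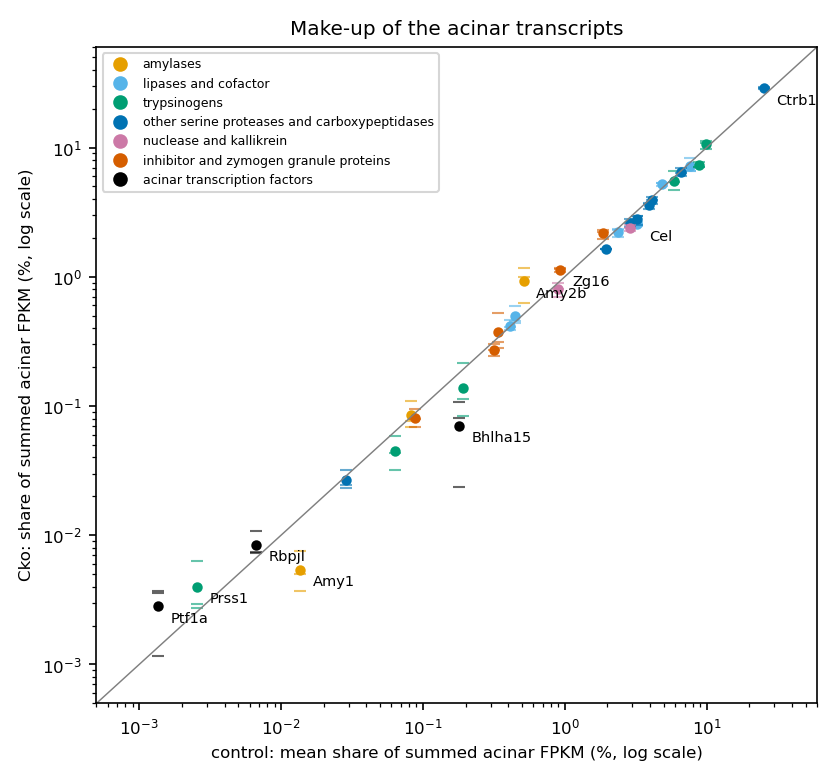
Share of the summed acinar FPKM (%) held by each of the 33 genes in Cko (vertical, points for the mean and dashes for the 3 libraries) against the control mean (horizontal), both on log scales, coloured by role, with the line of equality. Shares from 0.00135% for Ptf1a to 25.4% for Ctrb1 in control follow the line, with Bhlha15 and Amy1 below it and Amy2b and the barely detected Ptf1a above it.

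The shares of 9 genes did not overlap between the groups, which for some, such as Ctrb1, left a gap narrower than the spread within control. Amy2b, Ctrb1 and Zg16 had the higher share in Cko. Divided by the median acinar gene of each library in place of the sum, the log2 ratio of Ctrb1 turned to -0.13, against 0.18 by the sum, so its direction depends on the divisor. Zg16 held 1.15, 1.17 and 1.08% in Cko libraries 3, 4 and 5, against 0.956, 0.904 and 0.917% in control libraries 1, 3 and 4. Ctrb1 held 29.2, 28.9 and 28.5% in Cko, against 28.0, 25.4 and 22.9% in control. Within the control libraries, the share of Ctrb1 was highest where the summed level was highest. Within the Cko libraries it was lowest there, at 28.5% in library 5. Ctrb1 is itself a large part of the sum.

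Cel, Prss2, Ctrl, Cpb1, Rnase1 and Bhlha15 took a lower share in Cko. Cel held 2.54, 2.46 and 2.67% in Cko libraries 3, 4 and 5, against 3.13, 3.33 and 3.16% in control libraries 1, 3 and 4. Bhlha15 alone differed by more than 2-fold without overlap, at 0.0705 ± 0.0426% in Cko and 0.180 ± 0.0576% in control (SD, n = 3 each). Taken over all genes tested, 76.4% had a ratio to the acinar sum that was lower in every Cko library and 0.291% a ratio that was higher in every Cko library. The pattern of Bhlha15 was thus that of most genes of the table.

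**Figure D5:**
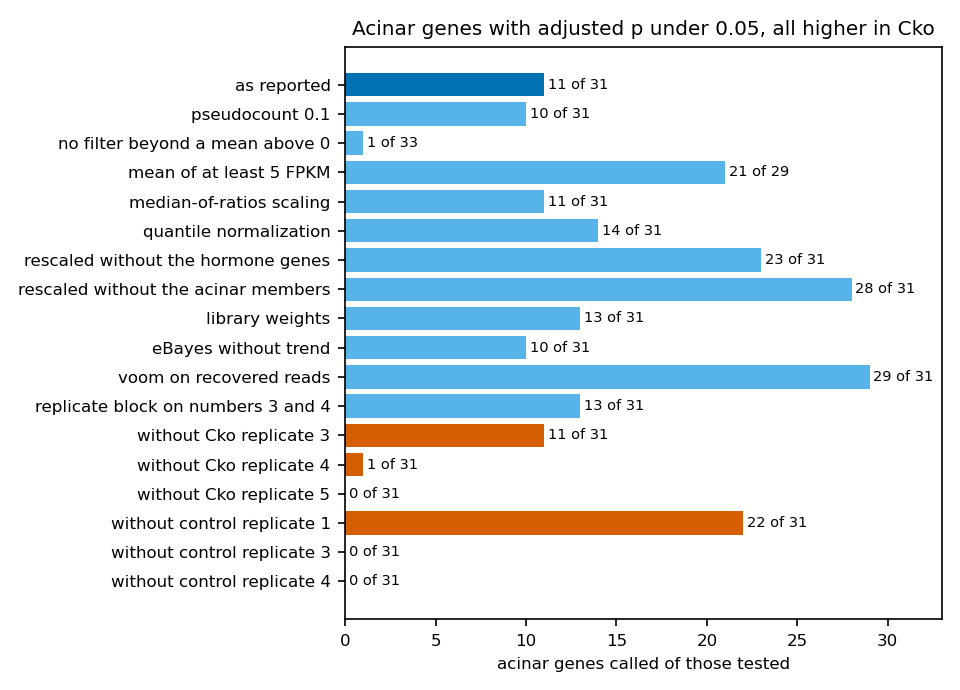
Number of acinar genes with a limma adjusted p under 0.05, of those tested, as reported and under each alternative setting, all of them higher in Cko. The count is 11 as reported, runs from 0 to 22 when 1 library is left out (orange bars), and reaches 29 with voom on recovered reads.

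Other genes known from acinar cells split by how closely they followed. Of 16 tested secretory genes outside the 33, 5 rose, 1 fell and 10 did not pass, with a median log2 fold change of 1.56. The shares over all genes tested were 6.97% up and 7.55% down. Reg1, a regenerating protein secreted by acinar cells, was 326, 483 and 1046 FPKM in Cko libraries 3, 4 and 5, against 189, 131 and 109 FPKM in control libraries 1, 3 and 4, and rose by 1.97. Amy2a4 rose by 2.03 and Amy2a3 by 1.55. Tmed6, a protein of the early secretory path, rose by 0.60, and Nucb2, the precursor of nesfatin, which is also made in islets, fell by 0.47.

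Of 14 tested acinar factors, receptors and membrane genes outside the 33, 3 rose, 1 fell and 10 did not pass, with a median of 0.36. Over all genes tested 6.97% rose and 7.55% fell. Gatm, which starts creatine synthesis, was 20.9 ± 1.75 FPKM in Cko and 12.4 ± 2.15 FPKM in control (SD, n = 3 each), Tmem97 14.7 ± 1.65 and 7.56 ± 1.57 FPKM, and Gata6, a pancreatic transcription factor, 6.08 ± 0.738 and 3.62 ± 0.757 FPKM in the same order. Rab3d, a GTPase of zymogen granules, fell, to 24.3 ± 1.14 FPKM in Cko, against 36.1 ± 4.92 FPKM in control. Across the 6 libraries these 4 genes spanned 1.81 to 2.89-fold, where the acinar sum spanned 8.76-fold, so their course was flatter than that of the sum. They were picked as called genes and do not stand for the list. Cckar, Aqp12 and Slc39a5 did not pass but spanned 7.24 to 11.7-fold. Each was highest in Cko library 5, without overlap between the groups, at ratios of means, Cko over control, of 2.76 to 3.45. The other tested genes that did not pass spanned 1.42 to 3.97-fold.

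Markers of other cell types differed in how far their summed levels stood apart between the genotypes. Beside the calls given here, 6.97% of all genes tested rose and 7.55% fell. The summed level of 14 ductal markers was 484 to 621 FPKM in Cko and 228 to 265 FPKM in control, with 2 of 10 tested genes up. One of these was the keratin gene Krt8, at 213, 351 and 302 FPKM in Cko libraries 3, 4 and 5, against 62.1, 101 and 87.3 FPKM in control libraries 1, 3 and 4, so it was not highest in Cko library 5. For 11 macrophage and lymphocyte markers it was 119 to 143 FPKM in Cko and 97.5 to 123 FPKM in control, with 5 of 9 tested up. For 11 stellate and fibroblast markers it was 41.1 to 61.3 FPKM and 40.3 to 44.6 FPKM, and for 9 endothelial markers 115 to 151 FPKM and 120 to 143 FPKM, in the same order, with no call in either. Among 9 alpha, delta and PP cell genes 1 rose and none fell. Of 10 immediate early genes, which respond within minutes to stimulation or handling, 9 rose, with summed levels of 4608 to 5869 FPKM in Cko and 724 to 1968 FPKM in control. No marker was at 0 in all 6 libraries, and the part of these differences in the acinar result was not tested.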

How the data were processed

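RNA was extracted with Trizol from islets labelled as beta cells and sequenced after a SMARTER mRNA-Seq kit, per the labels' protocols, on build GRCm38 (mm10), per the submitters' processing notes. Neither the aligner nor the read counter nor strandedness is named there. The authors deposited FPKM per gene, 1 column per library.

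Multiplied by gene length, 100% of nonzero values fell on whole steps (tolerance 0.01 of a read), which gave back reads per gene for depth, amylase and trypsinogen totals and a voom fit. The library size behind the deposited FPKM departs from these totals by factors of 0.890 to 1.11. They were 1.110, 1.042 and 1.020 in Cko libraries 3, 4 and 5, against 1.017, 0.890 and 0.967 in control libraries 1, 3 and 4. Every Cko factor was higher, so deposited FPKM put Cko lower relative to control than the read totals would. The 13723 genes averaging 1 FPKM or more entered limma 3.58.1 in R 4.3.3, as log2(FPKM + 1) (lmFit, eBayes with trend, Benjamini-Hochberg over all genes, threshold 0.05, no fold minimum). The limma fit was tested on simulated data. The labels' replicate numbers do not pair the libraries, and a block on the shared numbers was an alternative.

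The 33 genes and the lists were chosen with earlier results of these data known, so no count over them is independent support. Named in full were the 2 most abundant genes of each role, each called gene, each gene whose share of the acinar sum differed at least 2-fold without overlap, and the transcription factors; from other acinar lists, called genes by size of change, of which 1 is not reported here. Cckar, Aqp12 and Slc39a5, which were not called, were named in addition for their span across the libraries. Sharing of sequence was counted in 50-base words of GENCODE M21 transcripts. Coordinates of 30 of the 33 genes equal those of GENCODE M21. Python 3.11.15 with pandas 2.3.3 and matplotlib 3.10.9 served for tables and plots.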

Additional observations from a re-analysis of the deposited data

How the results depend on the processing

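No log2 fold change of a tested acinar gene turned its sign under any of the 17 alternatives. The count of called acinar genes, 11, was 1 with no filter beyond a mean above 0, 21 over genes of at least 5 FPKM, 23 after rescaling without the hormone genes, 28 after rescaling without the acinar genes and 29 with voom on recovered reads. The last 3 of these put the all-gene median log2 fold change at -0.12, 0.22 and 0.11, against -0.03 as reported. Over all genes 608 rose and 1249 fell, 2239 rose and 213 fell, and 1744 rose and 551 fell under them, against 957 and 1036 as reported and 352 and 186 with the replicate block. With 1 library left out the count of acinar genes ranged from 0 to 22. The causes were not tested. Bcas2 passed after rescaling without the hormone genes (-0.52, limma adjusted p 0.0352) and without control library 1 (-0.52, limma adjusted p 0.0492), and it ranged from -0.52 to -0.27 with 1 library left out. Rescaled without the acinar genes it was -0.14 (limma adjusted p 0.371). Under each rescaling the typical gene shifted in the same direction as Bcas2, by the medians given above. With the replicate block on numbers 3 and 4, Cko library 5 and control library 1 each formed a block of their own. The group difference in that fit therefore came from libraries 3 and 4 of each genotype alone. It called 13 acinar genes, 8 of them among the 11, and put Bcas2 at -0.55. The deviations of same-numbered libraries correlated at -0.09 across 13723 genes, so the numbers are not shown to pair the libraries.

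The log2 share ratios, Cko over control, of 32 genes were compared under 9 alternatives. Dividing by the median gene of each library, which was Zg16 in 4 libraries, Klk1 in control library 4 and Amy2b in Cko library 5, changed the sign for 9 genes, among them Ctrb1 (-0.13). By that divisor 21 of the 32 ratios moved by more than the combined SD of the log2 shares within the groups. For Zg16 the log2 ratio to the median gene is 0 by construction in those 4 libraries and tells nothing. Amy2b (0.54 to 1.07) and Bhlha15 (-1.78 to -0.94) kept theirs under all 9. Setting each gene's ratio of means against the median of that ratio over the 33 genes, an alternative chosen after seeing the data, changed the sign for 6 of the 32 genes and gave 0.24 for Ctrb1 and 0.36 for Zg16.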
